A study of Saccharomyces cerevisiae with 2 samples.

Results

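Chromosome 3 of budding yeast (Saccharomyces cerevisiae) carries the mating-type locus and both of its silent copies, and it is described here from end to end. Its members were taken as all probes, apart from control spots, that the array's own annotation places on chromosome 3. They numbered 1088 of 41775 probes on the array, and 1062 of them passed the filters on spot quality and brightness. The study compared nucleosomal DNA with genomic DNA on 2 two-colour tiling arrays, replicate 1 and replicate 2, which form 1 group. Cells had been arrested with alpha factor, the pheromone that holds responding cells before DNA replication. Per the labels, the nucleosomal DNA came from chromatin digested with micrococcal nuclease (MNase, an enzyme that cuts the linker between nucleosomes) and carried Cy5, and the genomic DNA came from sonicated chromatin and carried Cy3. Both arrays had the same dye orientation, so their mean does not remove a dye bias. The labels give neither the strain nor its mating type. They do not say whether the replicates came from separate cultures, and both arrays lay on 1 slide, so each p-value reflects how far these arrays differ, a spread that may be technical.

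The mating type of a yeast cell is set by the genes present at MAT, a locus on the right arm of the chromosome. The same kinds of genes are also kept at HML, near the left end, and at HMR, near the right end, where the Sir proteins hold them silent in compact chromatin. A cell that switches copies one of the silent loci into MAT, and alpha factor acts on cells that carry a-type information there. Nucleosomes as a rule cover coding regions more evenly than promoters, where many genes have a nucleosome-depleted region.

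All values are log2 ratios of Cy5 over Cy3 after the median of each array was set to 0. A value above 0 therefore means more of the DNA labelled nucleosomal than at a typical probe. Across the genome, upstream regions had higher ratios than coding regions, so how the sign relates to nucleosome cover is not settled here, and values follow the labelled channels. On chromosome 3 the probes ran from position 1147 to 315561, with a median spacing of 256 bp. Coordinates are those of the array's annotation, and the sources used here name no genome build for them. Values on the 2 arrays had a Pearson correlation of 0.998 over the 1062 kept probes, which are not independent replicates, and their difference had an SD of 0.065. The sign was the same on both arrays for 1040 probes.

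The first question was how the chromosome divided into probes above and below the array median. In the limma test against 0, fitted over all kept probes of the genome with Benjamini-Hochberg adjusted p under 0.05, 464 probes of chromosome 3 lay above 0 (43.7%), against 46.9% of all probes. Below 0 lay 529 probes (49.8%), against 47.0% of all probes, and 69 did not pass. The values ran from -2.44, upstream of OCA4, to 4.79, upstream of PMP1. The middle of the distribution lay between -0.60 and 0.51, the lower and upper quartile.

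The share above 0 depended on where a probe lay relative to genes. Of 737 coding probes 286 were above 0 (38.8%, against 40.4% of all coding probes) and 395 were below (53.6%, against 52.9%). Upstream of a gene that follows another gene's end (tandem upstream, 168 probes), 95 were above 0 (56.5%, against 65.1% over the genome) and 64 below (38.1%, against 31.0%). Between 2 gene starts (divergent, 76 probes), 46 were above (60.5%, against 65.9%) and 27 below (35.5%, against 30.0%). Probes that the annotation places downstream of a gene (downstream, 68) were above 0 in 36 cases (52.9%, against 56.5%) and below in 31 (45.6%, against 37.8%). Some of these lie between 2 gene ends and others between genes that run in the same direction. In each intergenic class the share above 0 was lower on chromosome 3 than over the genome.

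The class medians showed the same order. Coding probes of chromosome 3 had a median of -0.13 on both replicates, and those of the other nuclear chromosomes had -0.11. Tandem upstream probes had 0.35 on replicate 1 and 0.33 on replicate 2, against 0.54 elsewhere, a difference of -0.20 ± 0.017 (SD, n = 2 arrays). Divergent probes had 0.36 on both replicates against 0.63, a difference of -0.27 ± 0.011. Downstream probes had 0.15 and 0.12 against 0.20, a difference of -0.069 ± 0.034. The chromosome took place 3 from the lowest of the 16 nuclear chromosomes for tandem upstream probes, place 2 for divergent, place 5 for downstream and place 4 for coding probes. The 169 probes that lie upstream within 500 bp of a start codon had a median of 0.44 on replicate 1 and 0.46 on replicate 2, the lowest of the 16 chromosomes, while the other 15 ranged from 0.52 to 0.86.

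These places are a description, since an exact sign-flip test on 2 arrays cannot go below p = 0.5. The divergent difference turned to 0.014 after normexp background correction, and the downstream difference to 0.061. The outer 20 kb at each end held part of it. With these left out on every chromosome, tandem upstream probes had 0.50 on chromosome 3 against 0.59 elsewhere (place 4), divergent probes 0.38 against 0.65 (place 2), downstream probes 0.23 against 0.23 (place 8), and probes within 500 bp upstream of a start 0.59 against 0.71 (place 3).

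**Figure D1:**
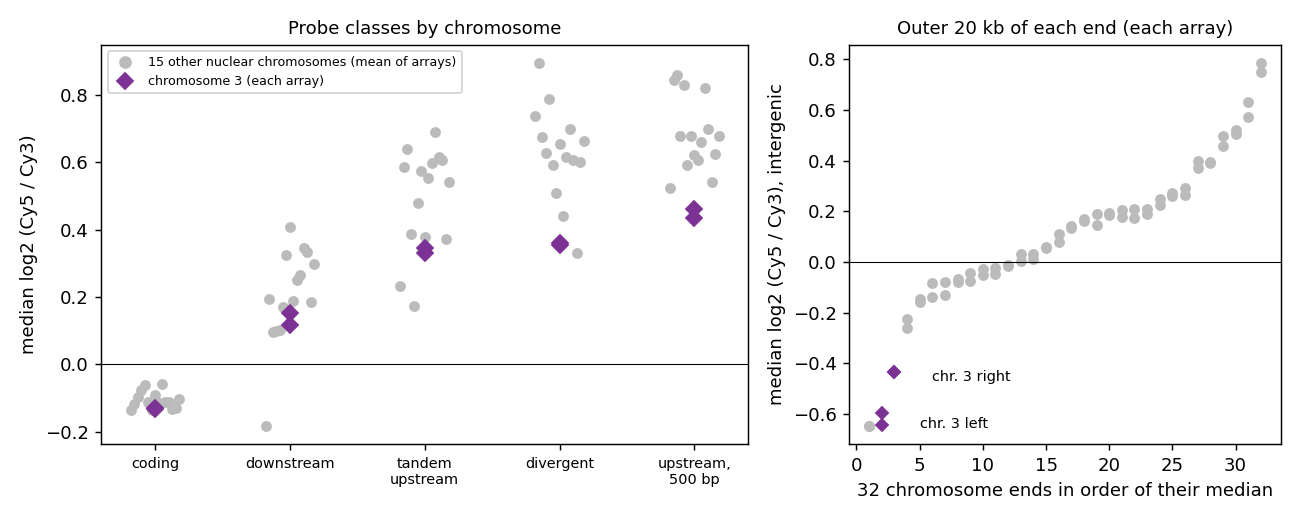
Left, median log2 ratio of Cy5 over Cy3 of 5 probe classes on each nuclear chromosome, with the 15 other chromosomes as grey circles (mean of both arrays) and chromosome 3 as purple diamonds (each array). Right, median of intergenic probes in the outer 20 kb of each of 32 chromosome ends, ordered by value, with a point per array. Within 500 bp upstream of starts, chromosome 3 lies lowest at 0.44 and 0.46, and its ends take places 2 and 3 from the lowest.

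Counted gene by gene, the share of genes above 0 upstream was lower than over the genome while the median was higher. The mean of the probes within 500 bp upstream was above 0 for 84 of 119 measured genes (70.6%, against 73.6% of all genes tested) and below 0 for 33 (27.7%, against 23.0%), by limma. Its median over the genes of chromosome 3 was 1.0, against 0.87 over the genes of the other chromosomes. The coding mean was above 0 for 54 of 140 genes (38.6%, against 38.2%) and below 0 for 78 (55.7%, against 55.6%). Upstream exceeded coding in 86 of 119 genes (72.3%, against 74.9%) and was lower in 28 (23.5%, against 21.2%), and the median of this difference was 0.98 on chromosome 3 and 0.96 elsewhere. Over probes, the upstream median exceeded the coding median by 0.57 on replicate 1 and 0.59 on replicate 2, the lowest difference of the 16 chromosomes. Of the intergenic stretches, 42 with 1 kept probe had a median of 1.07, 39 with 2 or 3 probes had 0.40, and 25 with 4 or more had 0.26. Among them, 9 stretches that hold a tRNA gene by gene order (63 probes) had 0.36 and 0.34 on the replicates, and 97 stretches without one (262 probes) had 0.19 and 0.20. Those without one include low stretches at the ends, such as that from the left end to CHA1 (24 kept probes, -0.73 and -0.76). All intergenic probes outside the outer 20 kb had 0.42 and 0.41, above the stretches with a tRNA gene. Stretches with and without a tRNA gene were not compared outside the ends, and a role of tRNA genes was not tested.

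Along the chromosome the intergenic ratio was low at both ends and higher in most windows between them, on both sides of MAT. In windows of 20 kb, the intergenic median, probes with no gene annotation included, was -0.64 on replicate 1 and -0.60 on replicate 2 in the first window. It was 0.11 and 0.045 from 20 to 40 kb, 0.44 and 0.66 from 40 to 60 kb, and -0.12 on both replicates from 80 to 100 kb. Left of MAT it was 0.86 and 0.82 from 120 to 140 kb (30 probes) and 0.65 and 0.59 from 140 to 160 kb (26 probes). Right of MAT, 220 to 240 kb had 0.86 and 0.88 (21 probes). The highest windows were 200 to 220 kb, just right of MAT, with 0.96 on both replicates (12 probes), and 240 to 260 kb with 1.40 and 1.42, where the window held only 5 probes. From there the median dropped to 0.14 and 0.096 from 260 to 280 kb, -0.31 and -0.28 from 280 to 300 kb, and -0.53 and -0.55 from 300 to 320 kb. Coding windows spanned less, from -0.56 in the first window to 0.030 from 240 to 260 kb.

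The left arm had an intergenic median of 0.11 and 0.068 (113 probes) and the right arm 0.29 and 0.33 (212 probes). This order turned after normexp, to a right minus left difference of -0.078. The intergenic stretch that holds the centromere CEN3 by gene order, between positions 114154 and 117285, had 13 probes with medians of 0.26 and 0.21. Within it 7 probes lay above 0 (56.5% of all downstream probes) and 6 below (37.8%). They ran from -1.11 to 1.43, so neighbouring probes differed by far more than the arrays did.

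**Figure D2:**
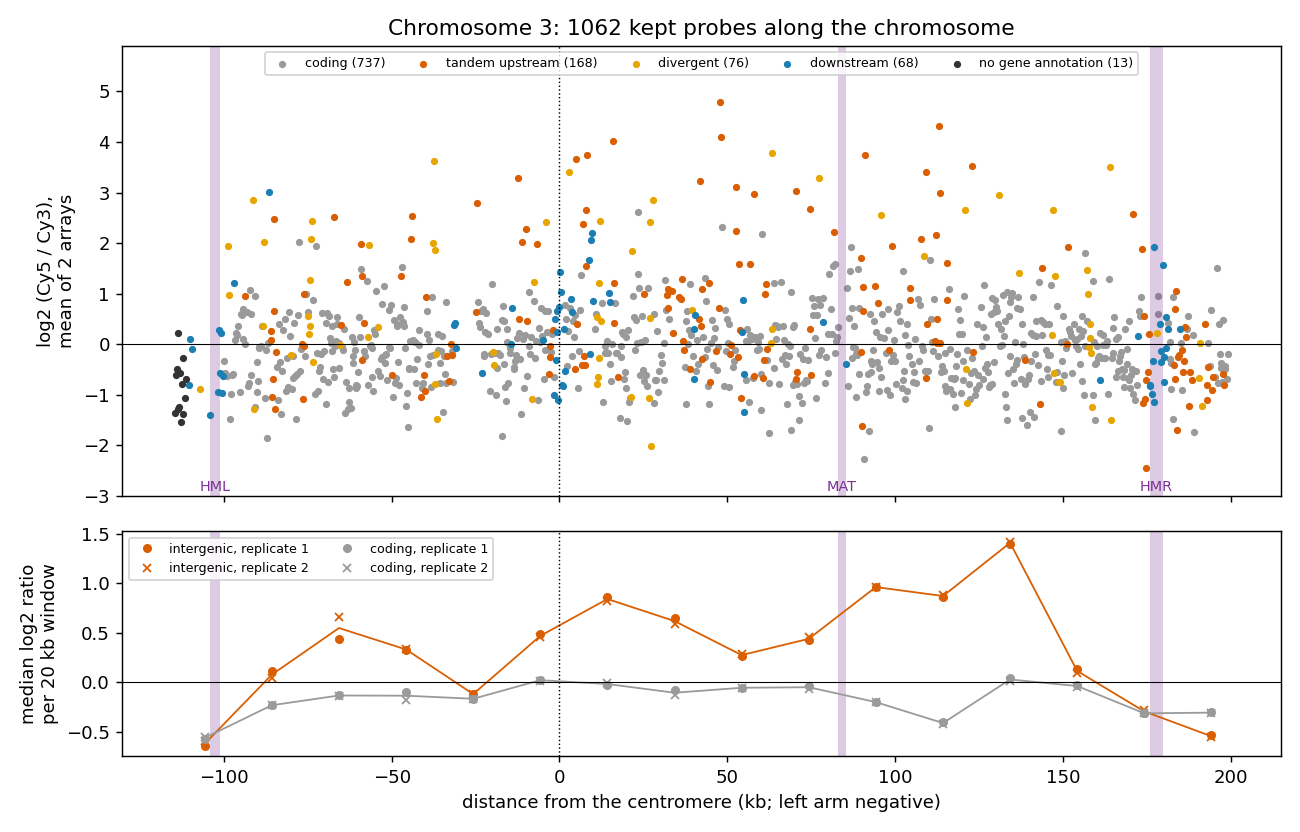
Top, log2 ratio of Cy5 over Cy3 (mean of 2 arrays) of the 1062 kept probes against distance from the centromere in kb, coloured by class, with HML, the gap at MAT and HMR shaded. Bottom, medians of intergenic and coding probes in windows of 20 kb, with a circle for replicate 1, a cross for replicate 2 and a line through their mean. Intergenic medians lie below 0 in the first window, at 80 to 100 kb and in the last windows. They reach 1.40 and 1.42 at 240 to 260 kb, a window of 5 probes.

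Both ends stood low among the chromosome ends. In the outer 20 kb on the left, 27 intergenic probes had medians of -0.64 and -0.60, the second lowest of 32 ends. On the right, 32 probes had -0.43 on both replicates, the third lowest, and the other 30 ends ranged from -0.65 to 0.77 with a median of 0.15. Coding probes took place 2 on the left (-0.44 and -0.45, 14 probes) and place 5 on the right (-0.29 and -0.28, 29 probes). At the far left, 13 probes between 1147 and 4353 with no gene annotation had medians of -0.80 and -0.78. Of these, 12 lay below 0 (47.0% of all probes) and 1 above (46.9%).

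The 2 ends differed in how they held under other processing. After normexp the left end moved to 0.29, place 17 of 32, whereas the right end had -0.37, place 2. The lowest raw Cy3 brightness among these intergenic probes was 756 on the left and 5252 on the right, and 469 among those outside the ends. Median raw Cy3 on the replicates was 10740 and 10260 on the left, near the 10660 and 10120 outside the ends. Median raw Cy5 was 13470 and 14500 on the left, against 31280 and 32190 outside the ends. A role of brightness at the ends was not tested. After loess the left end had -0.90 and the right end -0.23.

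HML was read by few probes. Between positions 11470 and 14654 the array had 5 probes, and a gap of 2457 bp, the second largest on the chromosome, took most of the locus. The probe annotated to YCL068C, an open reading frame of unknown function beside the silent genes, had -1.33 and -1.49 (11470 to 11529, adjusted p = 9.28e-06, limma). Downstream of HMLALPHA1, the silent copy of the alpha1 activator gene, the probe at 13987 to 14046 had -1.07 and -0.82 (adjusted p = 1.38e-04), the one at 14178 to 14236 had 0.21 and 0.37 (2.49e-03), and the one at 14412 to 14471 had -0.59 and -0.56 (1.32e-05). Of these, 3 were below 0 (37.8% of all downstream probes) and 1 above (56.5%). The fifth probe, at 14595 to 14654, was not well above background in Cy3. The locus median was -0.83 on replicate 1 and -0.69 on replicate 2. After normexp the locus median turned to 1.14, so that 2 probes were above 0 and 1 below. The probes at 13987 and 14178 moved most, to 2.11 and 1.99, and had raw Cy3 brightness of 2127 and 2891 on replicate 1, against 15370 at YCL068C and 10890 at 14412. Some other probes of similarly dim Cy3 also came out near 2 after normexp, whatever their main value. Examples were 1147 to 1202 at the left end (main -1.36, normexp 2.05), 114378 to 114437 in the CEN3 stretch (0.50 and 2.045) and the HIS4 upstream probe (1.35 and 2.1). Not all dim probes did so: the YCR043C upstream probe, with raw Cy3 of 1708 on replicate 1, had 3.74 in the main setting and 3.07 after normexp. A role of brightness was not tested.

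The genes right of HML showed the pattern of a promoter between coding regions. CHA1 encodes the serine and threonine deaminase of amino acid breakdown, and VAC17 the receptor that links the vacuole to its myosin motor. The region shared by the 2 genes had 1.95 and 1.93 at 16966 to 17025 and 0.97 on both replicates at 17226 to 17284, a mean of 1.45 ± 0.0027 (SD, n = 2 arrays, adjusted p = 3.52e-07). Coding probes of CHA1 had a mean of -0.51 ± 0.022, and those of VAC17 -0.92 ± 0.0016, an upper bound because 1 of the 4 probes was saturated in Cy3 on both arrays. Of the 12 kept probes of this pair 3 were above 0 (46.9% of all probes) and 9 below (47.0%).

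At MAT the array had no probe inside the locus. The gap ran from the last probe of BUD5, ending at 198689, to the first downstream of TAF2, starting at 201133, a length of 2443 bp. BUD5 encodes the exchange factor that sets the bud site. Its 5 coding probes, at 197677 to 198689, averaged 0.39 and 0.40, the nearest to the gap at 0.34 on both replicates. Of these, 4 lay above 0 (40.4% of all coding probes) and 1 below (52.9%). Their mean no longer passed after normexp, at 0.27. TAF2, a subunit of the general transcription factor TFIID, had 22 probes. Of these, 11 were above 0 (46.9% of all probes), 10 below (47.0%) and 1 not past the test. They ran from -1.61 to 1.93, and the probe next to the gap had -0.46 and -0.34. After normexp 5 rather than 11 probes of the 2 genes were below 0, a larger drop in share than that from 529 to 409 over the chromosome. The coding mean of TAF2 was 0.31 on both replicates over 16 probes, a lower bound because 1 of them was saturated in Cy5 on both arrays. Its upstream mean was 0.77 and 0.79.

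The genes around MAT held the chromosome's steepest contrast. YCR043C, a gene of unknown function, had 3.73 and 3.75 upstream (206671 to 206729) and -2.28 and -2.27 in its 1 coding probe (206427 to 206486). The difference was 6.01 ± 0.0053 (adjusted p = 1.95e-08, limma), the largest measured among the chromosome's 119 genes, with the highest upstream value among genes with a region of their own and the lowest coding value. The next gene, PER1, whose product remodels the lipid of GPI anchors, had a coding mean of -1.02 ± 0.024 (SD, n = 2 arrays), the second lowest as measured. PHO87, a phosphate transporter, had 2.20 and 2.24 upstream, and RBK1, a ribokinase, had 3.29 and 3.30 in a region it shares with RRP43. All 5 measured genes of the MAT flanks were above 0 upstream, against 73.6% of all genes. Their median was 2.22, against 1.0 over the genes of chromosome 3. RBK1, PHO87 and YCR043C rested on 1 upstream probe each, and intergenic stretches with 1 kept probe ran high over the chromosome (1.07, against 0.26 with 4 or more). In coding regions 4 of 7 were above (38.2% of all genes) and 3 below (55.6%).

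HMR was covered better than HML. Its 13 probes, from 291610 to 295448, had a median of -0.15 on replicate 1 and -0.13 on replicate 2. Of these, 6 lay above 0 (46.9% of all probes) and 7 below (47.0%). On the side of HMRA2, the silent a2 gene, the probes had values from -1.14 to -0.34 except for one at 292717 to 292776 with 1.79 and 2.06, the highest of the locus. The lowest, at 292992 to 293051, had -1.15 and -1.14. The region between HMRA2 and HMRA1 had 0.18 and 0.27 at its 1 probe, which turned to -0.075 after normexp. The 2 coding probes of HMRA1, the silent copy of the a1 repressor gene, had 0.62 and 0.56 (293930 to 293989) and 0.91 and 0.99 (294177 to 294236). Their mean of 0.77 ± 0.0081 (adjusted p = 6.16e-09) was the highest measured coding value of the chromosome, though MRPL32, at 0.71, is a lower bound and may lie above it. HMRA1 was 1.35 after normexp and 0.44 after loess, where OCA4 (0.71), LEU2 (0.62), GRX1 (0.57) and MRPL32 (0.92) were higher. HMR, HML and MAT share part of their sequence, and a cell that responds to alpha factor carries a1 at MAT as well. No probe sequences were at hand, so which HMR probes lie in shared sequence was not checked. For those that do, the signal cannot be told apart by locus.

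Around HMR values alternated within short distances. OCA4, right beside HMRA2, had the lowest probe of the whole chromosome in its upstream region, at 290614 to 290673, with -2.45 and -2.44 (adjusted p = 5.04e-07). The same region held 1.90 and 1.89 at 289307 to 289366. OCA4 coding probes averaged 0.73 and 0.70. The mean of its 2 probes within 500 bp was 0.36 ± 0.011 (adjusted p = 3.80e-05), which turned to -0.41 over the whole upstream region, and was 0.026 after loess and 0.92 after normexp, where it no longer passed. GIT1, a transporter of glycerophosphoinositol on the other side of HMR, had -0.58 and -0.53 upstream, and its probes ran from -1.70 to 1.06. After normexp its upstream mean was -0.089 and no longer passed. Farther left, CDC50, a subunit of a lipid flippase, had 2.52 and 2.62 upstream and -0.84 and -0.87 in its coding region. Of the 7 measured genes that flank the silent loci, 5 were above 0 upstream (73.6% of all genes) and 2 below (23.0%), GIT1 and YCR099C, with a median of 1.0, and 6 of 7 were below 0 in their coding regions (55.6% of all genes). YCR099C had -0.33 on both replicates, a lower bound because 1 of its 3 probes was saturated in Cy5. After normexp 3 rather than 5 were above 0 upstream. Over the chromosome, probes above 0 fell by a smaller share in that setting (381 rather than 464).

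**Figure D3:**
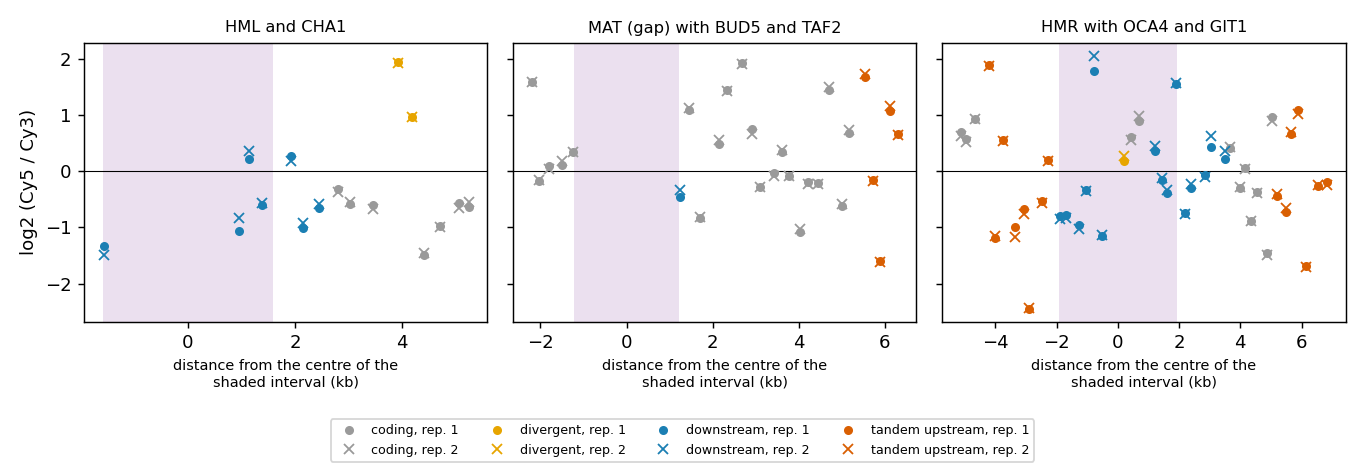
Log2 ratio of Cy5 over Cy3 of each kept probe (circles for replicate 1, crosses for replicate 2, coloured by class) against distance in kb from the centre of the shaded interval, which marks HML, the gap at MAT and HMR. HML shows 4 probes at its edges from -1.41 to 0.29 (means of both arrays), MAT none, and HMR 13 probes on both sides of 0, with the lowest probe of the chromosome at -2.44 just outside it.

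Genes of mating and the pheromone response included some of the chromosome's high upstream values and some below 0. FUS1, a membrane protein that acts in cell fusion and is induced by pheromone, had 2.14 and 2.01 at 71433 to 71492 and 2.52 and 2.56 at 71661 to 71720. Its upstream mean of 2.33 and 2.29 exceeded its coding mean of -0.31 and -0.26 by 2.59 ± 0.070 (adjusted p = 3.90e-08). RVS161, an amphiphysin-like protein of endocytosis and cell fusion, had 2.61 and 2.64 upstream, a lower bound because 1 of its 2 probes was saturated in Cy5 on both arrays. KAR4, a transcription factor of nuclear fusion, had 1.19 on both replicates in a region shared with its divergent neighbour. The septin gene CDC10 had 3.40 and 3.41 at the probe it shares with MRPL32.

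The others of this group were lower. ABP1, an actin-binding protein, had -0.69 and -0.81 upstream, and BUD3, which marks the axial bud site, had -0.28 and -0.29 in the region it shares with DCC1. The BUD3 value turned to 0.61 after normexp. In all, 4 of 6 measured genes were above 0 upstream (73.6% of all genes) and 2 below (23.0%), with a median of 1.75. The list is broad, as it counts septin, actin and bud-site genes (CDC10, ABP1, BUD3 and BUD5), among them both genes below 0. It leaves out FIG2, a mating gene of this chromosome. FIG2 was above 0 upstream (0.95 and 0.98) and in its coding region (0.085 and 0.091). In coding regions 3 of 9 were above (38.2% of all genes), among them BIK1, a microtubule plus-end protein, at 0.30 and 0.29, and 6 were below (55.6% of all genes). STE50, an adaptor of the pheromone kinase cascade, had -0.38 and -0.37, and KAR4 had -0.73 and -0.77. The KAR4 coding mean turned to 0.45 after normexp, and the BIK1 value no longer passed there, at 0.14.

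The 5 measured genes of amino acid supply were above 0 upstream, as were 73.6% of all genes. LEU2, the leucine synthesis gene used as a selection marker, had 0.60 and 0.65 at 90734 to 90793 and 2.79 and 2.81 at 91013 to 91070. Its 4 coding probes averaged 0.55 and 0.58, and all 6 LEU2 probes were above 0 (46.9% of all probes). The probe before them lay 5895 bp away, the largest gap on the chromosome. HIS4, of histidine synthesis, had 1.33 and 1.37 upstream, ILV6, of branched-chain amino acid synthesis, had 1.38 and 1.35, and the amino acid permease AGP1 had 2.48 and 2.50 in the region it shares with KCC4. With CHA1 these made 5 of 5 measured genes, with a median of 1.45. In coding regions 2 of 6 were above and 3 below, where all genes had 38.2% and 55.6%, and AGP1 did not pass at 0.034 and 0.016.

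Genes of glycolysis and carbon use were mostly above 0 in coding regions as well as upstream. PGK1, phosphoglycerate kinase, a strongly expressed glycolytic gene, had 1.77 and 1.90 upstream and 0.54 and 0.55 in its coding region. The coding median of this group was 0.28, against -0.085 over the genes of chromosome 3. Coding means were above 0 in 5 of 6 genes of this group, against 38.2% of all genes. The sixth, GLK1, the glucokinase, had -0.38 and -0.41. Upstream 5 of 6 were above 0 (73.6% of all genes), with a median of 1.41, and ADH7, an alcohol dehydrogenase at the right end, was below with -0.78 and -0.79. CIT2, the peroxisomal citrate synthase, had 0.94 and 1.02 upstream, which turned to -0.42 when only probes within 250 bp were taken. GLK1 upstream had 0.42 and 0.33, and after normexp it had 0.51 but no longer passed.

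Genes of the ribosome, translation and assembly were above 0 upstream in 9 of 11 measured cases (73.6% of all genes), with a median of 1.75. RPS14A, a protein of the small ribosomal subunit, had 1.90 and 1.91 upstream and a coding mean of -0.94 and -0.95, among the lowest of the chromosome. MRPL32, of the mitochondrial ribosome, had 0.71 on both replicates at its 1 coding probe, a lower bound since it was saturated in Cy5 on both arrays, and shares its upstream probe with CDC10. RRP43, a subunit of the RNA exosome, had 3.29 and 3.30 upstream. Below 0 were SPB1, an rRNA methyltransferase, with -0.72 and -0.73, and RRP7, of small subunit assembly, with -0.62 on both replicates. SPB1 turned to 0.034 over its whole upstream region, and RRP7 no longer passed after normexp, at -0.098. In coding regions 4 of 14 genes were above (38.2% of all genes), 9 below (55.6%) and 1 did not pass.

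Genes of chromatin, transcription and genome upkeep were above 0 upstream in 12 of 14 cases (73.6% of all genes), with a median of 0.98. HCM1, a forkhead factor of the cell cycle, had 2.47 and 2.42 upstream and a coding mean of -0.56 and -0.60. TUP1, the corepressor, had 1.39 and 1.45 in a region it shares. SNT1, of the Set3 complex, had 0.62 and 0.57, which turned to -0.56 within 250 bp. SRB8, a mediator subunit and 1 of the 2 genes counted below, had -0.27 and -0.37 at 1 probe saturated in Cy5 on both arrays, a lower bound that leaves its side of 0 unknown, and 0.16 after loess. After normexp 6 genes of this group rather than 12 were above 0. Over the chromosome the following calls, which are other measures than upstream means against 0, fell by a smaller share. Probes above 0 numbered 381 rather than 464, and genes with upstream above coding 71 rather than 86. In coding regions 3 of 14 were above (38.2% of all genes), 8 below (55.6%) and 3 did not pass.

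The highest upstream means among genes with a region of their own, after YCR043C, were those of RHB1, a small GTPase, with 2.68 and 2.66, RVS161, CDC50, MGR1, of a mitochondrial protease, with 2.54 and 2.50, and HCM1. RHB1 had 1.69 with no filter and 0.98 over its whole upstream region, and HCM1 had 1.51 within 250 bp. The lowest was AHC2, of the ADA acetyltransferase complex, with -1.18 and -1.17 at 1 probe (258827 to 258884). HBN1, which resembles bacterial nitroreductases, followed with -1.06 and -1.03. YCR101C, of unknown function at the right end, had -0.89 on both replicates, and turned to 0.46 after normexp. ADH7, FRM2 and SPB1 completed the 6 lowest. FRM2, a neighbour of HBN1 with a like product, had -0.77 and -0.78 upstream. This was -0.67 after normexp, where it no longer passed, and -0.21 over the whole upstream region. FRM2 was low in its coding region too, at -0.81 and -0.83, so its upstream and coding means were not told apart by the test (adjusted p = 0.149).

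The sign of the contrast was reversed in some genes. Upstream was lower than coding by -1.32 ± 0.0050 in YCR101C, -1.17 ± 0.072 in HBN1, -1.05 ± 0.019 in AHC2 and -1.03 ± 0.086 in APA1, an enzyme of diadenosine tetraphosphate use. With 1 of 2 upstream probes of APA1 saturated in Cy5 its shortfall is at most this large, and with 1 of 2 coding probes of HBN1 saturated its shortfall is at least this large. The APA1 difference was -0.48 within 250 bp. Their adjusted p-values by limma lay between 1.11e-07 and 1.91e-06, and the YCR101C difference no longer passed after normexp, at -0.20. Upstream exceeded coding by 3.43 ± 0.093 in CDC50, 3.02 ± 0.0041 in HCM1 and at least 2.99 ± 0.010 in RVS161. With HMRA1, the 6 highest measured coding means were those of ELO2, a fatty acid elongase, with 0.73 and 0.77, OCA4, MRPL32 (a lower bound), GRX1, a glutaredoxin, with 0.60 and 0.64, and LEU2.

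**Figure D4:**
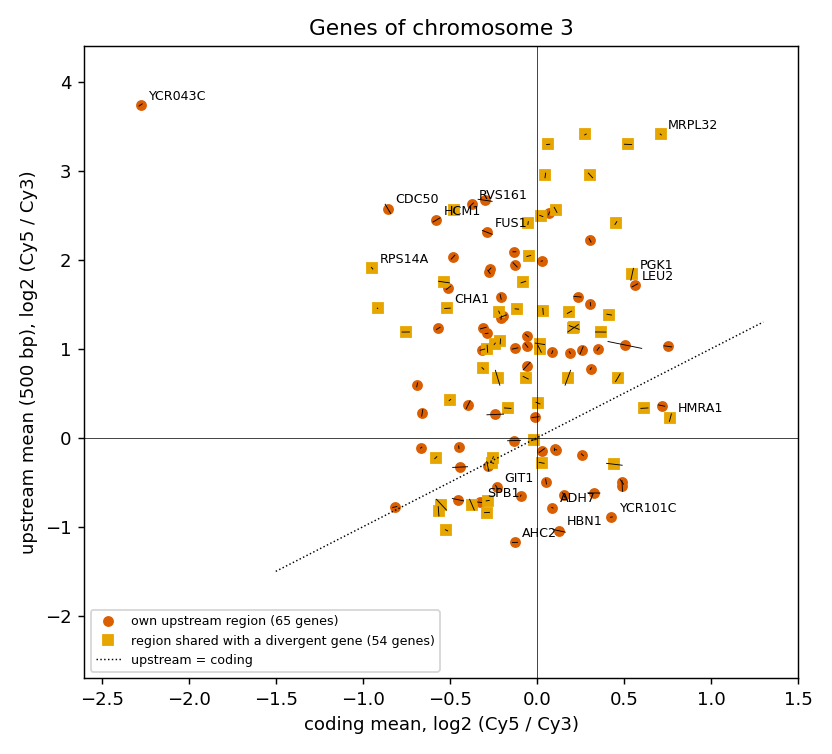
Upstream mean (within 500 bp) against coding mean of the 119 genes of chromosome 3 with both, as log2 ratios of Cy5 over Cy3, with circles for genes with a region of their own and squares for genes that share it with a divergent gene. Symbols are means of 2 arrays, short lines join the arrays, and the dotted line marks equal values. Most genes (86 of 119) pass the test above that line, YCR043C stands apart at 3.74 and -2.28, and AHC2 is lowest upstream at -1.18.

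Single probes chosen after their values were seen reached farther than these means. The highest were upstream of PMP1, a regulator of the plasma membrane proton pump, with 4.87 and 4.72 at 163425 to 163484 and 4.14 and 4.07 at 163761 to 163819. PMP1 had no coding probe and so no gene value. HCM1 had 4.35 and 4.29 at 228802 to 228859, and RVS161 3.97 and 4.07 at its saturated probe. After OCA4 and YCR043C the lowest was the region between CTO1 and RBP95, with -2.02 and -2.0 at 143071 to 143129.

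Some stretches gave almost no signal from the genomic DNA. On chromosome 3, 19 of 1088 probes (1.75%) were not well above background in Cy3 on at least 1 array, against 58 of 40392 on the other nuclear chromosomes (0.144%), and 14 of the 19 were also not well above background in Cy5 on both arrays. The longest run held 6 probes between SRD1 and MAK32, from 149974 to 151177, with raw Cy3 brightness of 136 to 451 on replicate 1 and 150 to 520 on replicate 2. A pair of probes at SRD1, from 148727 to 149060, was dim as well. Others lay at GEX1 and VBA3 near the left end and at YCR108C at the right end. LEU2 was not among them. These probes were left out of all values above except those given with no filter, and a cause was not tested.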

How the data were processed

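Nucleosomal DNA (Cy5) and genomic DNA (Cy3) were compared on 2 arrays of 1 group, and per the labels' protocols the nucleosomal DNA was amplified linearly before labelling. The deposited scanner files hold spot intensity: raw mean, local background and a processed intensity that was detrended over the slide and scaled by dye, per the file headers (Agilent Feature Extraction, version 9.1.3.1). The deposited files also hold a log10 ratio of the processed channels, which was not used. The authors' deposited value table holds log2 ratios that equalled log2 of processed Cy5 over Cy3, uncentred, to within 5.00e-06, so all files run in the same direction. It had medians of -0.13 and -0.13 and was tried as a setting without centring.

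Control spots made up 3444 of 45219. For the other 41775 probes, log2 of processed Cy5 over Cy3 was taken and centred on each array's median, with no loess or quantile step. Probes flagged as non-uniform (174, of which 7 on chromosome 3) or not well above background in Cy3 (147, of which 19) were left out, so 41454 remained. Saturated spots stayed. On both arrays, 36 kept probes of chromosome 3 were saturated in Cy5 and 6 in Cy3, of which 5 in both channels. A ratio with only Cy5 saturated is a lower bound, one with only Cy3 saturated an upper bound, and one with both has no bound. Genes were ordered by values as measured, so places next to such a bound are not fixed. Median raw brightness was 32997 and 33242 in Cy5 over backgrounds of 80.5 and 80, and 17885 and 16928 in Cy3 over 59 and 57. The number of arrays limits the precision.

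Probes, the upstream mean (within 500 bp of the start, placed midway between the flanking probes), the coding mean and their difference per gene were set against 0 over the whole genome in R 4.3.3 by limma 3.58.1, whose lmFit had an intercept only and was followed by eBayes. Adjusted p-values (Benjamini-Hochberg) under 0.05 passed. The fit was tested on simulated data. Class medians, windows, ends and lists were described without a test. Names were updated through a gene table of assembly R64, which served for naming, strand and the order of genes alone: all 151 names on chromosome 3 matched, of which 28 received a newer symbol. Python 3.11.15 (with matplotlib 3.10.9, pandas 2.3.3 and numpy 2.4.6) did the rest.

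The chromosome and the 8 gene lists were chosen with earlier results of these data known. Named genes are the 6 lowest and 6 highest upstream and coding means that passed and had 1 sign on both arrays, without probes annotated to several genes, the 4 lowest and 4 highest differences, and members of the lists: mating-type loci (of 10 listed genes only HMRA1 was measured), flanks of the silent loci, flanks of MAT, mating and pheromone, amino acids, glycolysis and carbon, ribosome and translation, and chromatin and transcription. The highest and lowest probes at each mating locus were also named, as would have been a gene whose coding probes were all dim, of which there was none. Alternatives were normexp (offset 50) on the raw intensities, loess within arrays, no centring, other filters, other upstream windows, other window sizes, no outer 20 kb, and each array alone.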

Additional observations from a re-analysis of the deposited data

How the results depend on the processing

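No paired analysis was possible because there is 1 group. With 1 array left there is no test, and since each of 2 arrays lies within 1 SD of their mean by construction, single arrays say nothing about stability. After normexp the chromosome 3 median was -0.24 for coding, 0.63 for tandem upstream, 0.91 for divergent and 0.62 for downstream probes, and the differences from the other chromosomes were -0.053, -0.23, 0.014 and 0.061, the last 2 reversed. Upstream minus coding was 1.10, genes with upstream below coding numbered 12, right minus left arm was -0.078 (reversed), outer minus rest was -1.08 and the range of window medians 2.01. At HML 2 probes were above 0 and 1 below, beside MAT 5 were below, and upstream 3 flanks of the silent loci and 6 chromatin genes were above. Probe calls over the chromosome fell too, by a smaller share than those beside MAT or among these genes, to 381 above 0 and 409 below. Some probes dim in Cy3 came out near 2 after normexp, as at HML, and others did not, as upstream of YCR043C (3.07). Whether brightness bears on the reversed values was not tested. The lowest raw Cy3 brightness was 2131 among KAR4 coding probes, 2127 upstream of BUD3 and 5252 upstream of YCR101C.

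After loess the medians were -0.10, 0.22, 0.30 and -0.068 (downstream, reversed), and the differences -0.018, -0.16, -0.17 and -0.16. Upstream minus coding was 0.49, outer minus rest -0.75, the range 1.95, and 0 HML probes were above 0 by limma (0 also at an unadjusted p under 0.05, since all 4 had negative means). With no centring the medians were -0.26, 0.21, 0.23 and 0.0067. Without dim and saturated probes the tandem and downstream medians were 0.32 and 0.097, the coding, tandem and downstream differences -0.027, -0.22 and -0.11, upstream minus coding 0.56 and outer minus rest -0.95. With no filter the coding, tandem and divergent medians were -0.13, 0.22 and 0.35, the differences -0.020, -0.33 and -0.28, upstream minus coding 0.55, outer minus rest -0.79, the range 1.94 and 2 HML probes were above 0.

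Without the outer 20 kb the coding, tandem and downstream differences were -0.015, -0.083 and 0.0033 (reversed). Over whole upstream regions upstream minus coding was 0.47. The range of window medians was 3.74 in windows of 10 kb and 1.27 in windows of 40 kb.

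Of single values, these reversed: the HML median (1.14) and, upstream, YCR101C (0.46), BUD3 (0.61) and HMRA1 (-0.075) and, coding, KAR4 (0.45) after normexp; SRB8 (0.16) after loess; CIT2 (-0.42) and SNT1 (-0.56) within 250 bp; SPB1 (0.034) and OCA4 (-0.41) over the whole region. A further 13 lost their call with the same direction, 12 of them after normexp, and 429 kept direction and call or moved within the spread between arrays, single arrays not counted. Another 6 moved beyond it, all medians of HML (-1.14 after loess, -0.89 with no centring, -0.58 with no filter) and HMR (-0.075 after normexp, -0.094 after loess, -0.27 with no centring). Probes not well above background in Cy3 (19 on chromosome 3) gave no value outside the setting with no filter.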
